A study of Bos taurus with 13 samples.

Results

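HSP90B1, PDIA3, CCT5 and HSPD1 are the 4 chaperone and protein folding genes described here, out of 706 genes named on a bovine mammary cDNA microarray. They were chosen by symbol in the platform's gene annotation. Each was printed as 1 clone in 3 spots, so 12 of the 3888 spots per array carry them, and no second clone of any member was available to check its identity. HSP90B1 and PDIA3 stand for the endoplasmic reticulum (ER), CCT5 for the cytosol and HSPD1 for mitochondria.

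Chaperones bind unfolded proteins and help them reach their native form, and each compartment of the cell has its own set. HSP90B1 (also called GRP94) is the HSP90 of the ER lumen, which matures secreted and membrane proteins. PDIA3 (also called ERp57) is a disulfide isomerase that works with the lectins calnexin and calreticulin on glycoproteins. CCT5 is a subunit of the ring-shaped chaperonin CCT, which folds actin and tubulin in the cytosol. HSPD1 (HSP60) is the chaperonin of the mitochondrial matrix. The lactating mammary gland makes and secretes large amounts of milk protein through the ER, and part of the ER machinery is known to be raised under such a load.

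The data are 13 hybridisations with 2 channels, each giving 1 log ratio per spot. On 8 arrays the total RNA of 1 tissue (adipose, adrenal, ileum, liver, lymph, spleen, thymus, or the mammary gland of a pre-pubertal Holstein heifer of 136 kg) was set against the BovMac cell line as reference. On 2 arrays lactating mammary gland was set against pre-pubertal gland, from a heifer of 136 kg (lactating array 1) or 227 kg (lactating array 2). The labels of lactating array 2 conflict: its title and channel say pre-pubertal, which is followed here, and a keyword says post-pubertal. On 1 array the gland of a 136 kg pre-pubertal heifer was set against that of a post-pubertal Holstein heifer of 310 kg, and 2 arrays set the reference against itself. Ages, the stage of lactation, the number of animals behind each RNA and the breed of the lactating cows are not given in the labels, nor whether the 136 kg heifer of 3 arrays was the same animal. Each tissue was 1 array without a replicate, and nothing says whether the lactating RNA of the 2 arrays was shared. The p-values therefore measure only spread between those arrays. That spread includes any difference between the 136 kg and 227 kg pre-pubertal heifers. Heifer and array cannot be told apart, and the spread cannot stand for that between animals of a group. Most of that spread was pooled over genes rather than taken from a gene's own 2 values. All groups are whole tissue, in which fewer cells of a type and less RNA per cell cannot be told apart.

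Of the 3888 spots, 124 to 373 per array stood at exact 0 and were treated as having no ratio. Agreement between spots was measured as the mean Spearman correlation over pairs of spots of 1 accession. It was 0.53 to 0.86 on the tissue arrays, 0.68 and 0.72 for lactating gland, 0.63 for reference array 1, 0.12 for reference array 2 and 0.077 for the post-pubertal array. Single values from the last 2 are the least certain. Ileum, pre-pubertal mammary gland, lactating array 1 and reference array 1 also differed from the others in a run of 144 unannotated spots, of which 59.7% to 69.4% were at exact 0 on these arrays and 98.6% to 100% on the rest. The part of this difference in the results was not tested. Intensities were not used here, so precision is limited by the number of spots and arrays.

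All values below are log ratios after each array was centred on its median. The base of the logarithm is not given in the sources used here, so no value is turned into a fold change. On the lactating arrays, positive values are said to lie on the casein side. It is likely the side of more RNA in lactating gland, because the casein genes CSN1S1 and CSN2 lay there on both arrays, at 1.61 and 2.56 for CSN1S1 and at 0.76 and 0.79 for CSN2. Those were the 2 of 9 measured milk secretion genes that passed the test, and 0 passed on the other side. The caseins CSN1S2 (-0.19 and 0.39) and CSN3 (0.98 and -0.16) changed sign between the arrays. Of the 9 genes, 6 were above 0 on both arrays and 0 were below 0 on both. Among the 6, PAEP was the mean of 2 clones that differed, at 0.0016 and -0.27 and at 0.75 and 1.41. On the tissue arrays the direction is not settled. The labels name the tissue as the source of channel 2, but the dyes and the channel used as numerator are not given. The adrenal and liver arrays correlated at r = -0.31 over genes, below the other pairs, and tissue signs are those of the deposited ratio. With the sign turned, low and high trade places. On the lactating arrays the lactating gland was the source of channel 1. If the same channel was the numerator on the tissue arrays as on the lactating arrays, a negative ratio would be the side of the tissue. That condition was not tested. Markers on the ileum array lay on both sides of 0, with EPCAM at 1.94 and CD74 at 2.41 but POSTN at -1.52 and COL5A2 at -0.68.

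The lactating comparison asked which genes differ between the milk-producing gland and the gland before puberty. The ER pair of chaperone genes lay on opposite sides of 0, though only PDIA3 of that pair passed the test. Cytosol and mitochondria had a single member each, so compartments could not be compared. CCT5 and PDIA3 passed the test on the casein side, HSP90B1 lay on the opposite side of both arrays without passing, and HSPD1 did not pass and had no constant sign. Over all 697 genes tested with limma, 103 passed at an adjusted p of 0.05, which is a background of 14.8%. On the casein side alone the background was 11.3%, and on the opposite side 3.44%. In the reference arrays limma called 0% of 680 genes, but that fit used the spread of those arrays alone. With the spread shared between lactating and reference arrays, the lactating calls fell from 103 to 36. The 2 of 4 members that passed are read against the background of 14.8%, and 4 genes are too few to say more.

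**Figure D1:**
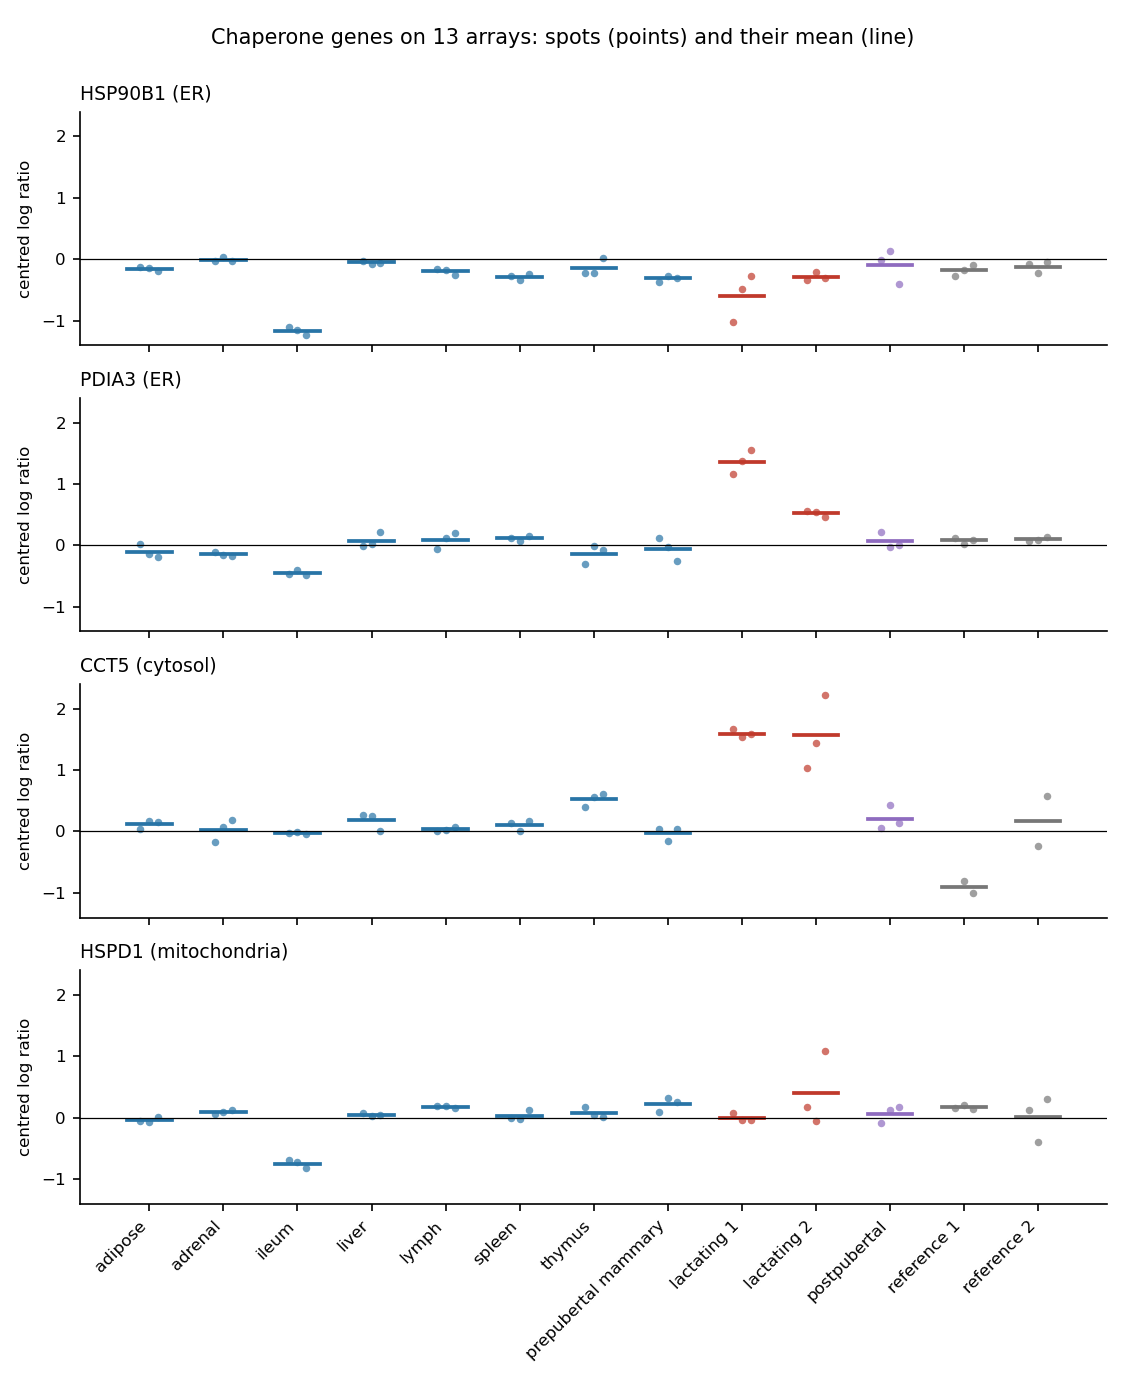
Centred log ratio (vertical axis, base of the logarithm unstated) of each chaperone gene on the 13 arrays (horizontal axis), with spots as points and their mean as a line; tissue arrays are blue, lactating arrays red, the post-pubertal array purple and the reference arrays grey. CCT5 and PDIA3 stand above 0 in every spot of both lactating arrays, and HSP90B1, HSPD1 and PDIA3 are lowest in ileum among the tissues.

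CCT5 was at 1.59 on lactating array 1 and 1.57 on lactating array 2, a mean of 1.58 ± 0.018 (SD, n = 2). Its 3 spots lay at 1.66, 1.54 and 1.58 on array 1 and at 1.04, 1.44 and 2.22 on array 2. Every spot was above 1, so the arrays gave nearly the same mean although the spots of array 2 were wider apart (SD 0.60) than those of array 1 (SD 0.063). The 95% interval of the mean was 1.26 to 1.90 and the adjusted p was 1.54e-06 by limma. CCT5 ranked 17 from the highest of 697 genes, and 24 genes (3.44%) lay at least 1 unit above 0 on both arrays.

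The reference against reference arrays limit that call. There CCT5 had 2 usable spots per array and stood at -0.90 on array 1 and 0.17 on array 2 (SD over spots 0.14 and 0.57). The value on array 1 was the 7th lowest of 700 genes in a hybridisation of 1 RNA against itself. In contrast with these arrays the lactating mean was 1.94, further from 0, but with an adjusted p of 0.0783 by limma. CCT5 also missed the threshold without array 1 (adjusted p = 0.0687, limma) and without array 2 (0.121), where the spread came from the reference arrays.

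PDIA3 was at 1.36 on lactating array 1 and 0.52 on lactating array 2, a mean of 0.94 ± 0.59 (SD, n = 2). The spots ran from 1.16 to 1.55 on array 1 and from 0.46 to 0.56 on array 2. All lay on the casein side, and the ranges of the 2 arrays did not overlap, with a gap between array means of 0.84. The 95% interval of the mean was 0.55 to 1.34, and the adjusted p was 0.00235 by limma. The reference against reference values were close to 0, at 0.082 and 0.100. PDIA3 ranked 35 from the highest of 697 genes, and 37.2% of genes were above 0 on both arrays. It passed in 5 of 10 alternatives. It lost the call with exact 0 kept as a value (adjusted p = 0.151, limma), with arrays scaled to the same spread (0.183), with the spread shared with the reference arrays (0.0871) and when set against those arrays (0.270). On array 2 alone it did not pass, at 0.52 (adjusted p = 0.208, limma), and on array 1 alone it passed, at 1.36 (0.0247).

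HSP90B1, the other ER member, was at -0.59 on lactating array 1 and -0.29 on lactating array 2, a mean of -0.44 ± 0.22 (SD, n = 2). Its spots lay at -1.02, -0.49 and -0.27 on array 1 and at -0.34, -0.21 and -0.31 on array 2. All were below 0, with 1 low spot on array 1, without which that array's mean was -0.38. The 95% interval was -0.77 to -0.11. The unadjusted p was 0.0129 and the adjusted p 0.0722 by limma, so HSP90B1 did not pass. Below 0 on both arrays lay 33.7% of genes. On the reference against reference arrays it was also below 0, at -0.18 and -0.12, and in contrast with them the lactating mean was -0.29 (adjusted p = 0.462, limma).

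HSPD1 was at -0.0044 on lactating array 1 and 0.40 on lactating array 2, a mean of 0.20 ± 0.29 (SD, n = 2) with an adjusted p of 0.472 by limma. On array 2 a single spot at 1.08 stood apart from the others at 0.17 and -0.054, and without it the mean of that array was 0.059. The interval of -0.14 to 0.54 leaves room for a difference on the casein side as large as that of PDIA3 on array 2.

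Within the arrays, PDIA3 lay above HSP90B1 by 1.96 on lactating array 1 and 0.81 on lactating array 2. CCT5 lay above HSPD1 by 1.60 and 1.17, and above HSP90B1 by 2.19 and 1.85. CCT5 lay above PDIA3 by 0.23 and 1.04. The order CCT5, PDIA3, HSPD1, HSP90B1 was the same on both arrays, though PDIA3 and HSPD1 were only 0.13 apart on array 2. With 2 arrays an exact permutation test of such a difference cannot go below p = 0.50, so these differences were not tested.

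**Figure D2:**
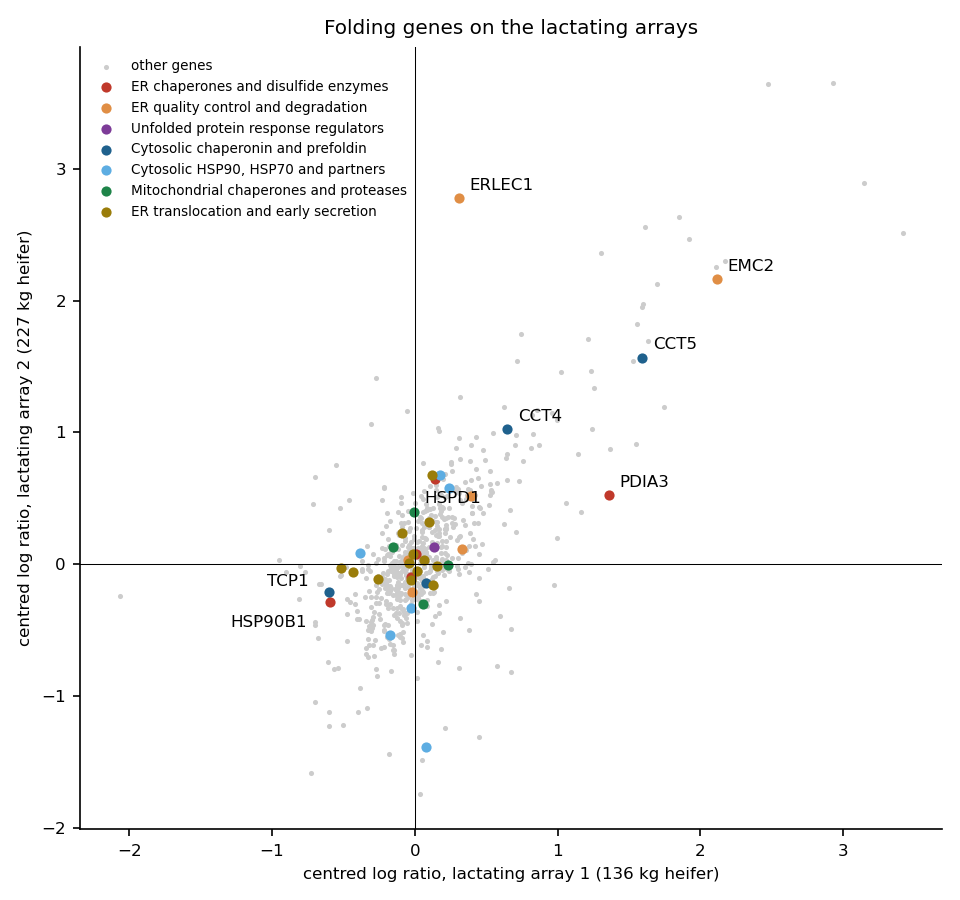
Centred log ratio on lactating array 1 (horizontal axis) against lactating array 2 (vertical axis), 1 point per gene, with folding and early secretion genes coloured by list. CCT5 and EMC2 lie near the diagonal at 1.57 to 2.17, PDIA3 is higher on array 1 and ERLEC1 far higher on array 2.

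To place the members, 7 lists of folding and early secretion genes were counted, of which 39 genes could be tested. 5 passed, all on the casein side (CCT4, CCT5, EMC2, ERLEC1 and PDIA3), or 12.8% against the background of 14.8% on either side and 11.3% on the casein side. Apart from the members it was 3 of 35 genes, or 8.57%. The lists' median was 0.033, against -0.00027 over all genes tested. The share called in the folding lists was thus near the background, and no test was made of that difference.

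The cytosolic chaperonin list held 4 tested genes, and 2 passed. CCT4, another subunit of the same ring as CCT5, was at 0.65 and 1.02, a mean of 0.84 ± 0.26 (SD, n = 2; adjusted p = 0.00166, limma). TCP1, which is the first subunit of that ring, was at -0.60 and -0.21 (mean -0.40 ± 0.27, adjusted p = 0.102, limma). So 3 subunits of 1 complex were measured, 2 on the casein side and 1 below 0 on both arrays. When the reference was set against itself CCT4 stood at -0.19 and -0.23, and the contrast with those arrays gave an adjusted p of 0.0783 by limma. PDCL, a phosducin-like partner of the chaperonin, was at 0.081 and -0.14.

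Beside HSP90B1 and PDIA3, the list of ER chaperones and disulfide enzymes held TMX4, a membrane thioredoxin, at 0.14 and 0.64 (adjusted p = 0.125, limma). TXNDC12, a small thioredoxin of the ER, was at -0.027 and -0.093, and MCFD2, part of a cargo receptor, at 0.0080 and 0.080. PDIA3 was the 1 of 5 that passed, and the list's median was 0.044. Among 6 genes of ER quality control 2 passed. EMC2, of the complex that inserts membrane proteins, was at 2.12 and 2.17 (adjusted p = 6.65e-08, limma). ERLEC1, a lectin of ER-associated degradation, was at 0.31 and 2.78. It passed in 3 of 10 alternatives, and without array 2 its value was 0.31 and its adjusted p 0.699 by limma.

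UBXN4, which tethers the degradation machinery at the ER, was at 0.40 and 0.52 (adjusted p = 0.0560, limma). DERL1, a channel component, was at 0.33 and 0.12, VCP, the ATPase that extracts proteins from the membrane, at -0.018 and -0.21, and EMC3 at -0.047 and 0.029. ATF4, a transcription factor of the unfolded protein response and the single measured regulator of it, was at 0.13 on both arrays (adjusted p = 0.635, limma). Of 23 listed regulators ATF4 was the 1 named on the array, so the others could not be analysed. The chaperone HSPA5 was not analysed here either.

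In the limma fit 0 of 6 cytosolic HSP90 and HSP70 genes and partners passed, with 4 at an unadjusted p under 0.05. HSPA2, an HSP70, was at 0.24 and 0.58, STIP1, which joins HSP70 and HSP90, at -0.026 and -0.33, and BAG6 at -0.38 and 0.087. TTC1 (0.18 and 0.68), TTC4 (-0.17 and -0.54) and the myosin chaperone UNC45A (0.077 and -1.39) did not pass either, though UNC45A passed on the side opposite the caseins without centring (adjusted p = 0.00304, limma) and on array 2 alone (0.0218). In the same fit 0 of 4 mitochondrial genes passed, with 0 at an unadjusted p under 0.05. Beside HSPD1 these were the HSP70 of the matrix HSPA9 (0.056 and -0.31), its exchange factor GRPEL2 (0.23 and -0.0070) and the import receptor TOMM70 (-0.15 and 0.13). Each of these 4 genes had opposite signs on the 2 arrays, though the negative values of HSPD1 and GRPEL2 were close to 0. HSPA9 was the mean of 2 clones that differed, at 0.19 and -0.011 and at -0.075 and -0.60. In the limma fit 0 of 13 genes of ER translocation and early secretion passed, with a median of -0.012. Their means ran from -0.28 for the SNARE BET1 to 0.40 for YIPF5, the 1 gene with an unadjusted p under 0.05 (0.0300).

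Markers of epithelium were measured on the same arrays, since epithelial content differs between stages. Of 9 listed genes 3 were tested (ELF5 at -0.11 and -0.064, EPCAM at -0.087 and 0.37, KRT7 at -0.48 and -0.018), and in the limma fit 0 passed, with 0 at an unadjusted p under 0.05. Of the leukocyte list 4 of 5 were tested and 1 passed, RAC2, at -0.81 and -0.26. The others were CD74 at -0.26 and -0.088, PTPRC at 0.10 and 0.057 and LCP1 at 0.038 and -0.055. Of the stroma list 3 of 9 were tested and the collagen gene COL5A2 passed on the casein side, at 0.53 and 0.61 (adjusted p = 0.0185, limma), while POSTN (-0.10 and -0.32) and TNC (-0.29 and -0.46) were below 0. Of the hepatocyte list 3 of 13 were tested and the complement gene C3 passed on the casein side, at 1.24 and 1.03 (adjusted p = 7.53e-05, limma), beside FGG at 0.027 and 0.049 and A2M at -0.71 and 0.46. The 2 endothelial genes tested, EMCN (-0.0035 and -0.040) and CAV1 (-0.0069 and 0.19), did not pass. The part of cell content in the chaperone values was not tested.

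**Figure D3:**
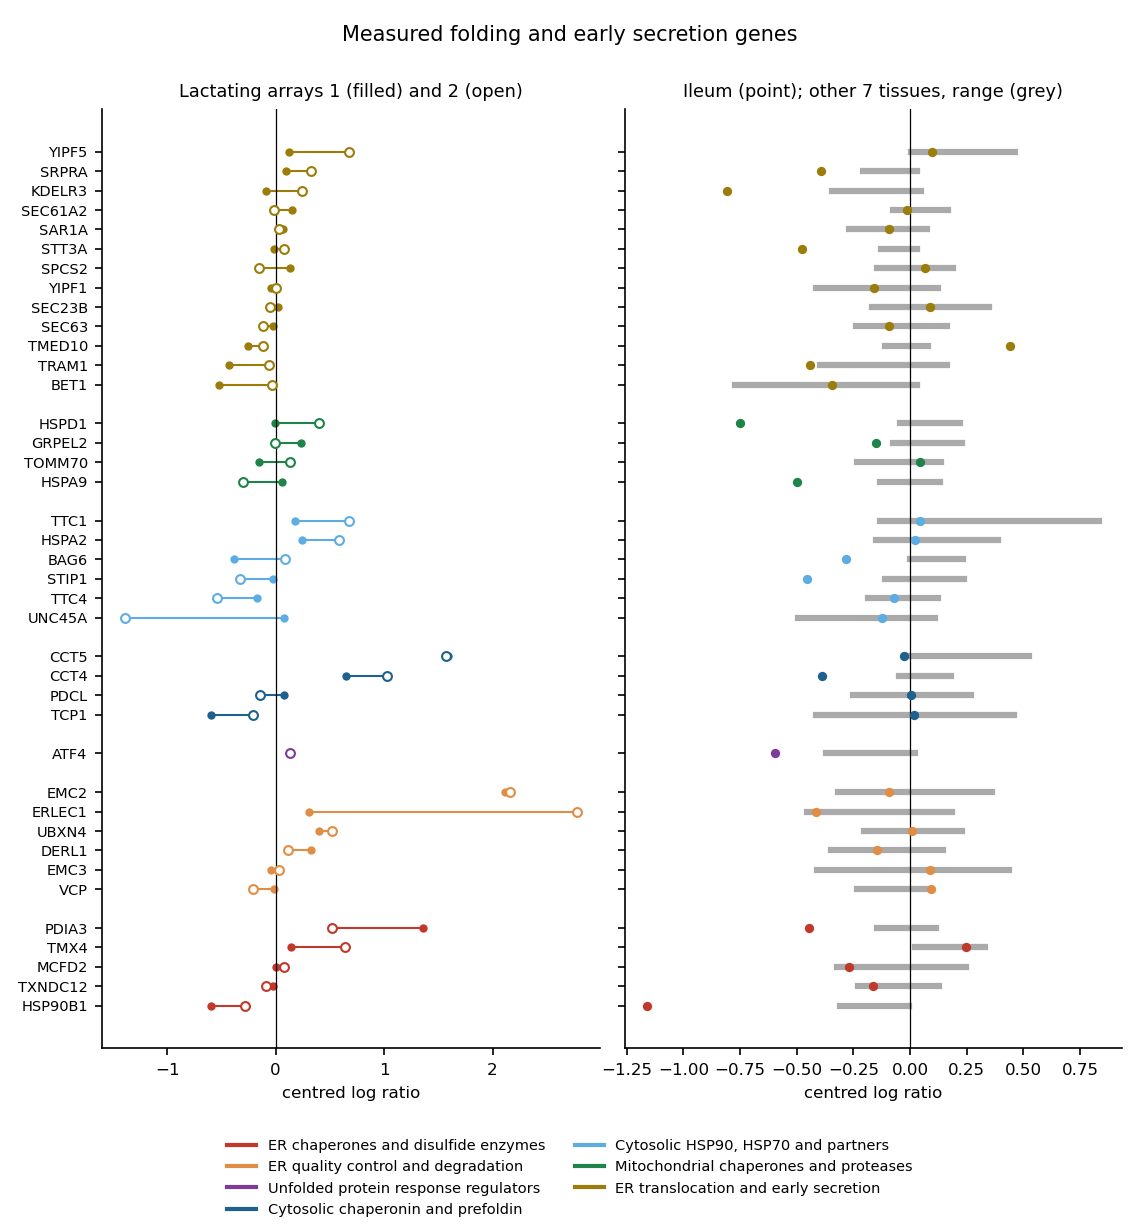
Measured folding and early secretion genes by list, with centred log ratios on lactating array 1 (filled) and array 2 (open) in the left panel, and on the ileum array (point) beside the range of the other 7 tissue arrays (grey bar) in the right panel. HSP90B1, HSPD1 and KDELR3 in ileum lie furthest below the bars.

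The tissue arrays asked how the genes of a mammary platform vary between organs. For the chaperone genes 1 array stood apart: HSP90B1, HSPD1 and PDIA3 each had their lowest ratio in ileum. CCT5 was also lowest there, but near 0 and level with pre-pubertal mammary gland. The ileum array was wider over all genes, with an SD of 0.51 against 0.15 to 0.25 on the other 7 tissue arrays. In units of each array's SD, PDIA3 was at -0.88 in ileum and -0.95 in adrenal. HSP90B1 was at -2.30 in ileum and -1.25 in spleen, and HSPD1 at -1.48 in ileum and -0.29 in adipose. On the other 7 tissue arrays the 28 values of the members ran from -0.31 to 0.53, and a single value was at least 0.5 from 0, that of CCT5 in thymus. No test is possible with 1 array per tissue, and each SD is over 3 spots.

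HSP90B1 was at -1.16 ± 0.062 in ileum, with spots at -1.11, -1.14 and -1.23. In order from the highest, the other tissues were adrenal (-0.0050 ± 0.039), liver (-0.049 ± 0.026), thymus (-0.14 ± 0.15), adipose (-0.15 ± 0.040), lymph (-0.19 ± 0.055), spleen (-0.28 ± 0.045) and pre-pubertal mammary gland (-0.31 ± 0.053). Ileum lay 0.85 below the mammary gland, and its highest spot was below the lowest spot of the other tissues, -0.37. The steps between liver and thymus, thymus and adipose, adipose and lymph, and spleen and mammary gland were within the larger SD of each pair. Of 700 genes on the ileum array, HSP90B1 was the 13th lowest, or with the sign turned the 13th highest. At least 1 unit below 0 lay 2.57% of genes there, and 6% lay at least 1 unit from 0 on either side. With arrays scaled to the same spread the value was -0.79 and no longer past 1 unit.

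HSPD1 was at -0.75 ± 0.069 in ileum, with spots at -0.69, -0.73 and -0.83. The highest values were in pre-pubertal mammary gland (0.22 ± 0.12) and lymph (0.18 ± 0.018), which did not differ beyond their spread. Adrenal (0.085 ± 0.034) came next, 0.093 below lymph, a step beyond the larger SD of the pair. After adrenal, thymus (0.068 ± 0.088), liver (0.046 ± 0.029), spleen (0.032 ± 0.081) and adipose (-0.043 ± 0.046) followed with neighbours within their spread. Adipose tissue was next above ileum, by 0.71, and no spot of the other tissues was below -0.074. HSPD1 ranked 26 from the lowest of 700 genes in ileum.

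PDIA3 was also lowest in ileum, at a smaller size of -0.44 ± 0.047. Its spots there lay at -0.46, -0.39 and -0.48, all below the lowest spot of the other tissues, -0.31. Those tissues ran from -0.14 ± 0.040 in adrenal, over thymus (-0.13 ± 0.15), adipose (-0.10 ± 0.11), mammary gland (-0.053 ± 0.19), liver (0.078 ± 0.12) and lymph (0.091 ± 0.13), to 0.12 ± 0.048 in spleen. No neighbours among these 7 differed beyond their spread. In ileum 10.9% of genes were lower than PDIA3, so its place there was not extreme.

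CCT5 was at -0.025 ± 0.017 in ileum and -0.024 ± 0.11 in pre-pubertal mammary gland, the lowest of its tissue values. It was highest in thymus, at 0.53 ± 0.11 with spots at 0.40, 0.56 and 0.62. The next tissue was liver (0.18 ± 0.14), 0.35 lower, and the highest spot outside thymus was 0.27. Below liver came adipose (0.12 ± 0.078), spleen (0.10 ± 0.084), lymph (0.035 ± 0.039) and adrenal (0.030 ± 0.18), with no step beyond the spread. CCT5 was the 9th highest of 703 genes on the thymus array (with the sign turned, the 9th lowest), where 0% of genes lay 1 unit or more from 0. Thymus was the highest tissue for 13.2% of genes, and 2 genes, CCT5 among them, had a margin of at least 0.35.

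Ileum was the lowest of the 8 tissues for 170 of the 695 genes with all values, or 24.5%, so a lowest value in ileum is common on this array. The size of the step was less so: 10 genes lay at least as far below their next tissue as HSP90B1, 17 as far as HSPD1 and 62 as far as PDIA3, each count including the gene itself. Among the 35 other folding genes, 10 had their lowest value in ileum (28.6%), close to that share, and 22 were below 0 there (62.9%, against 47.0% of all genes tested). KDELR3, a receptor that returns ER proteins such as HSP90B1 from the Golgi, was at -0.81 in ileum. ATF4 was at -0.60, HSPA9 at -0.50, STT3A of N-glycosylation at -0.48, STIP1 at -0.46, TRAM1 at -0.44, ERLEC1 at -0.42, and SRPRA and CCT4 both at -0.39. The highest 2 were TMED10, a cargo receptor, at 0.44 as the mean of clones at 1.16 and -0.28 that did not match, and TMX4 at 0.25. The rest lay between -0.35 and 0.095.

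Markers of other cell types also moved on the ileum array. Of the intestinal epithelium list 1 of 8 genes was measured, EPCAM, at 1.94. The leukocyte genes measured were 4 of 5, all above 0, from 0.10 for LCP1 to 2.41 for CD74. Of the stroma list 3 of 9 were measured, with POSTN at -1.52, COL5A2 at -0.68 and TNC at 0.23. The endothelial genes measured, 2 of 6, were CAV1 at -0.82 and EMCN at 0.39. The T cell and thymus, B cell, adipocyte and adrenal lists had 0 measured genes, so those tissue labels could not be checked. On the liver array the 3 of 13 hepatocyte genes measured did not share a sign (FGG at 0.21, A2M at -0.27 and C3 at -1.10). The part of cell content, or of the array, in these values was not tested.

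Across the tissues the members followed one another through the ileum array. Over the 8 tissue arrays, all against the same reference, HSP90B1 and HSPD1 had a Pearson r of 0.90, PDIA3 and HSPD1 of 0.81, and PDIA3 and HSP90B1 of 0.73. Without ileum, over 7 arrays, the same values were -0.37, 0.12 and -0.34. CCT5 had r of 0.37 with HSP90B1, 0.22 with HSPD1 and 0.11 with PDIA3, and of 0.21, -0.37 and -0.29 without ileum. The shared pattern of the 3 members therefore rests on 1 array.

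The genes most like each member over the 8 tissue and 2 lactating arrays were taken from 690 genes with all 10 values, by Pearson r. The tissue arrays were set against the reference and the lactating arrays against pre-pubertal gland. If the tissue arrays alone were turned in sign, these r values and the closest genes could change. CCT5 was closest to EMC2 (r = 0.98), CERS2, a ceramide synthase (0.98), and HNRNPH1, a splicing factor (0.97). Without the lactating arrays r was lower, at 0.69, 0.80 and 0.48. The lactating values were 0.64 and 0.64 for CERS2 and 0.82 and 0.89 for HNRNPH1. PDIA3 was closest to the deubiquitinase USP4 (0.94), RSL1D1 (0.92) and the spliceosome factor EFTUD2 (0.91), and without the lactating arrays r was 0.60, 0.31 and 0.44. USP4 (1.55 and 0.91), RSL1D1 (3.42 and 2.51) and EFTUD2 (1.16 and 0.40) were, as PDIA3, higher on lactating array 1 than on array 2. Because these genes were picked by r over arrays that include these values, the likeness is in part built in.

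HSP90B1 was closest to MRPL30 of the mitochondrial ribosome (0.94), the prostaglandin E synthase PTGES (0.92) and CTNNAL1 (0.91), and HSPD1 to the RNA helicase DDX5 (0.95), the tropomyosin TPM4 (0.94) and CAV1 of caveolae (0.93). Without ileum r was lower, at 0.76, 0.79 and 0.60 for HSP90B1 and 0.76, 0.58 and 0.53 for HSPD1. In ileum MRPL30 and PTGES were both at -0.73, CTNNAL1 at -1.20, DDX5 at -0.49, TPM4 at -1.69 and CAV1 at -0.82. These ileum values were part of the r by which the genes were picked.

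**Figure D4:**
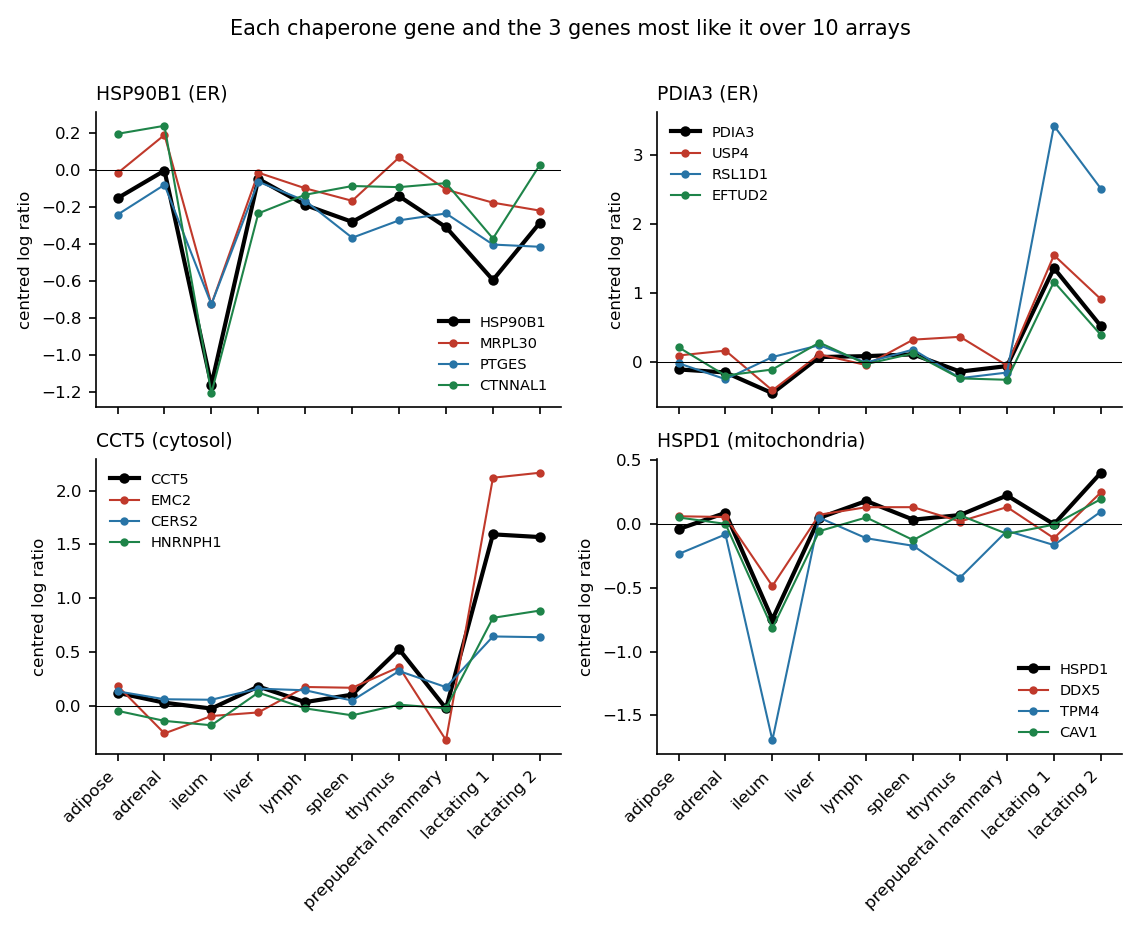
Centred log ratio (vertical axis) of each chaperone gene (black) and of the 3 genes with the highest Pearson r with it (coloured) on the 8 tissue and 2 lactating arrays (horizontal axis, in no order; lines only join the points of a gene). HSP90B1 and HSPD1 share the low ileum point with their closest genes, and CCT5 and PDIA3 share the high lactating points with theirs. The genes were picked by r over these same arrays.

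On the post-pubertal array, which compared heifers before and after puberty, the members were near 0. HSP90B1 was at -0.093 ± 0.28 (SD, 3 spots), PDIA3 at 0.065 ± 0.14, CCT5 at 0.21 ± 0.20 and HSPD1 at 0.062 ± 0.14. Each SD was about as large as its value or larger, and 0% of genes on that array lay 1 unit or more from 0. A difference in these genes at puberty was not detectable there.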

How the data were processed

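The 13 arrays gave 1 value per spot. The deposited values are log ratios of both channels. How the authors corrected background and normalized, which base they used and which channel was the numerator is not given in the sources used here. Deposited medians per array, exact 0 left out, were -0.0997 to 0.0304. In the platform's annotation 2538 spots had 1 gene, 30 had several and 1320 had none. RefSeq assembly ARS-UCD2.0 held 703 of the 706 genes, and 0 symbols changed. No coordinates or sequences were used.

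Exact 0 was taken as missing, arrays were median centred, spots of 1 accession were averaged (minimum 2 spots, values on at least 7 arrays) and accessions averaged per gene, which kept 703 genes. A two-sided limma test (version 3.58.1, R 4.3.3) set the lactating mean against 0 (lmFit, eBayes; 14.5 total degrees of freedom, 1 of them from the arrays) and Benjamini-Hochberg adjustment over 697 genes. The code was tested on simulated data. Of the reference against reference arrays, limma called 0 of 680 genes, with 43 at an unadjusted p under 0.05. Python 3.11.15, numpy 2.4.6, pandas 2.3.3, scipy 1.17.1 and matplotlib 3.10.9 did the rest.

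Named genes were the members, every measured gene of 7 folding and early secretion lists, the 3 genes most like each member, and milk secretion genes for direction. Cell type markers were named beside the results. The members and lists were chosen with earlier results of these data known. Alternatives changed the treatment of 0, centring, scale, spot summary, unit of the fit, filter, spread and arrays.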

Additional observations from a re-analysis of the deposited data

How the results depend on the processing

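HSP90B1 kept its sign and missed the threshold in all 10 alternatives (adjusted p 0.0667 to 0.493, limma). PDIA3 kept its side in all 10 and passed in 5. It missed the threshold with exact 0 kept (0.92, adjusted p = 0.151), arrays scaled to the same MAD (0.71, 0.183), spread shared with the reference arrays (0.94, 0.0871) and contrast with them (0.85, 0.270), and was 0.52 to 1.36 with either array left out. CCT5 passed in 7 and missed it in contrast with the reference arrays (1.94, 0.0783) and with either array left out (1.57 to 1.59). HSPD1 passed in 0 of 10 and was -0.0044 to 0.40 with an array left out. A left-out array leaves 1 lactating array, assumed to vary like the reference arrays.

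The 103 genes called became 32 with exact 0 kept (100% on the casein side, against 76.7% of the 103), 30 with arrays scaled to the same MAD, 36 with shared spread and 13 in contrast with the reference arrays, and 22 to 48 with an array left out. Without centring 84 were called, 61.9% on the casein side. Of the folding genes, 5 were called at first, and 2 with exact 0 kept, 3 scaled to the same MAD, 3 with shared spread, 1 (EMC2) in contrast with the reference arrays, and 2 to 4 with an array left out. The 4 without array 1 and the 6 without centring include UNC45A on the side opposite the caseins. The cause of each loss was not tested. Of the 32 member values on tissue arrays, scaling to the same MAD moved 8 by more than the SD over spots, with 0 sign changes. Keeping 0 moved 1, dropping centring 1, and the median of spots or no filter 0. Sign changes were 1 with 0 kept (HSP90B1 in adrenal, 0.0045), 2 without centring (HSP90B1 in adrenal, 0.0099, and CCT5 in ileum, 0.0057) and 2 with the median of spots (CCT5 in pre-pubertal mammary gland, 0.032, and HSPD1 in spleen, -0.010).

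Each lactating ratio already set lactating against pre-pubertal RNA on the same array. No pairing across arrays was made. The labels give the lactating arrays no replicate number and do not say whether the 136 kg heifer named on arrays of 3 groups was 1 animal.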

Other observations

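HSP90B1 had a value below 0 on all 13 arrays, the reference against reference arrays included, which held for 3 of 668 genes with a value on every array (0.449%). This rests on the adrenal array, where HSP90B1 stood at -0.0050. It no longer holds with exact 0 kept (0.0045 in adrenal) or without centring (0.0099), or if that array were turned in sign. On the 8 tissue arrays alone 10 of 695 genes were below 0 throughout (1.44%).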
